A study of Mus musculus with 2 samples.

Results

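The cells described here are 118 cells gated as dendritic cells of the conventional type 2 kind (cDC2) that carried many transcripts of Mgl2. They came from 15480 cells that passed quality filters. Among the 118, 8 also held Prdm16 and epithelial-type genes with little Cd209a, and these are described apart below. Their source tissues were gut-draining (mesenteric) lymph nodes, abbreviated mLN, and lamina propria of the small intestine, abbreviated siLP, of untreated mice aged 15 days, for which the genotype label gives Gm38411-iCre-hCD2, a reporter allele at Gm38411 with the recombinase iCre and human CD2. All cells carried this genotype, so there was no group without the allele, and there was no treated group. Cells were sorted as CD3-B220-CD11c+MHC-II+, and 6 biological replicates, 3 from each tissue, were marked with hashtag antibodies 2, 4, 5, 6, 8 and 9 before they were pooled into 1 droplet run. The sources used here do not tie a hashtag to a tissue or to an animal, so tissues were not compared and each hashtag served as 1 replicate.

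The members were chosen by measured values: a cell was a member if its raw counts of unique molecular identifiers (UMIs, which count captured transcripts) met a fixed gate. The gate asked for at least 1 UMI of Sirpa, a cDC2 surface receptor, and at most 1 of Xcr1 and Clec9a together, which mark the type 1 lineage (cDC1). It allowed at most 1 UMI of Fscn1, a marker of migratory DCs, and fewer than 10 of the complement genes C1qa, C1qb and C1qc together, which mark macrophages. It asked for 0 UMIs of Plet1, at most 1 of Tnfsf9 and at most 1 of Egr2 and Egr3 together. Members then needed at least 3 UMIs of Mgl2, and cells of the same gate with 0 UMIs of Mgl2, called Mgl2-zero here, were the comparison group of 2927 cells. Another 227 gated cells held 1 or 2 Mgl2 UMIs. Of 781 cells with 3 or more Mgl2 UMIs, the demand for 0 Plet1 UMIs removed the most, 307, and the Sirpa demand removed 112.

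Mgl2 encodes the C-type lectin CD301b, a surface receptor that binds galactose-type sugars on glycoproteins and helps phagocytes take them up. cDC2 present antigen on MHC class II to CD4 T cells, and the CD301b-bearing subset has been studied mainly in skin, where it takes part in T helper type 2 responses. Macrophages and cells derived from monocytes can express Mgl2 as well, which is why their markers are given beside the results.

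Promoter sequence is shown for Mgl2, which defines the members, and for Lyz2, one of the genes that differed most between the classes. Sequences are from RefSeq for build GRCm38.p6 (mm10), 5′ to 3′ on the coding strand, and run up to the base before the gene start in the GENCODE annotation. Mgl2 lies on the plus strand at chr11:70130329-70137550, and its printed window of 222 bases is chr11:70130107-70130328. Lyz2 lies on the minus strand at chr10:117277331-117282321, and its window of 201 bases is chr10:117282322-117282522. Capitals mark AGGAAGT or its reverse complement ACTTCCT, a motif with the GGAA core of ETS-family factors such as PU.1, which was chosen after the sequences were seen.
Mgl2: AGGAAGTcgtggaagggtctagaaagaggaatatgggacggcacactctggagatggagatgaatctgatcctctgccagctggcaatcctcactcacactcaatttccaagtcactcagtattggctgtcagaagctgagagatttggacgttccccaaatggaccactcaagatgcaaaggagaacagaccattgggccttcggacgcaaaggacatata
Lyz2: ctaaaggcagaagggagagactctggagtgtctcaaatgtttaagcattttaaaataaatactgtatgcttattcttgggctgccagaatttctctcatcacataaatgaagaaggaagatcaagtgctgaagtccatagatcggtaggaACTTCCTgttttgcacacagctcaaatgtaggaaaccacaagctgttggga
The match began 222 bases before the start in Mgl2 and 51 bases before it in Lyz2. Among 27025 RefSeq promoters, 7.80% held the motif on either strand in the first 250 bases of their sequence. The share was 7.09% in the last 222 of those bases and 6.51% in the last 201. The printed windows are instead the first 222 and 201 of those bases, so the stretches are not placed alike. Each window holds a motif that many promoters hold. The 250 bases before Cd209a, a lectin gene described below, held no match.

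The members made up 3.61% of the 3272 gated Sirpa+ cells (95% exact binomial interval 2.99% to 4.30%, which covers counting error only). Their share was 2.48% in hashtag 2, 3.69% in hashtag 4, 0.816% in hashtag 5, 5.53% in hashtag 6, 3.04% in hashtag 8 and 5.17% in hashtag 9. The lowest value, from 4 cells of hashtag 5, had an interval of 0.223% to 2.08%, and the highest, from 27 cells of hashtag 6, one of 3.68% to 7.95%. In cells gated as cDC1 (3 or more UMIs of Xcr1 and Clec9a, 0 of Sirpa), 0.328% had 3 or more Mgl2 UMIs, a value inside the interval of hashtag 5. Cells of hashtags 2, 4 and 5 were shallower, with medians of 6224 to 6564 UMIs per cell against 12000 to 12942 in hashtags 6, 8 and 9. When each cell was thinned to 3000 UMIs, the share with any Mgl2 UMI was 6.03%, 8.02%, 3.17%, 8.28%, 7.84% and 6.78% in hashtags 2, 4, 5, 6, 8 and 9, against 0.833% in thinned cDC1-gated cells. The lower-depth and higher-depth hashtags overlapped in both measures.

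**Figure D1:**
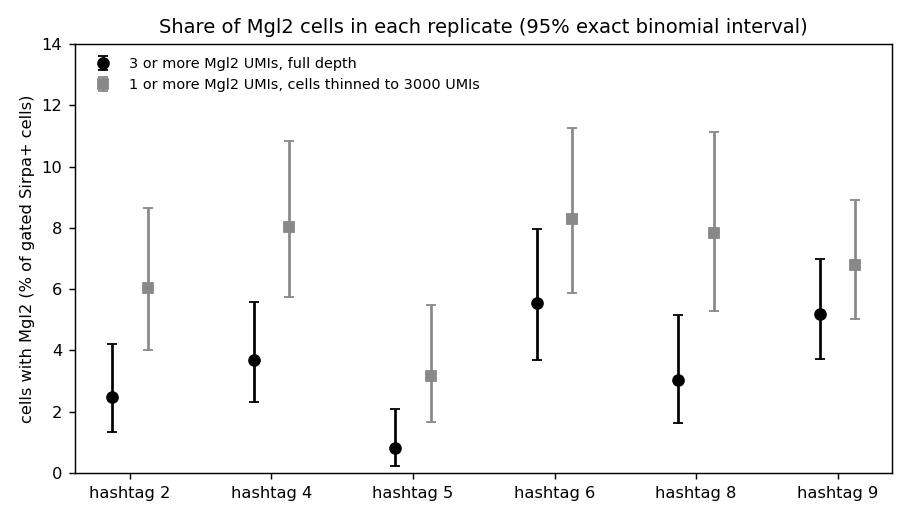
Share of Mgl2-bearing cells among gated Sirpa+ cells in each hashtag, in percent, with 95% exact binomial intervals. Black points are the members (3 or more Mgl2 UMIs, 0.816% to 5.53%) and grey squares are cells with 1 or more Mgl2 UMIs after thinning to 3000 UMIs (3.17% to 8.28%); hashtag 5 is lowest in both.

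The members were deeper than Mgl2-zero cells, which a minimum of 3 UMIs of any gene favours. Their median was 11878.5 UMIs against 7060, and within hashtags the median was higher in 6 of 6 pairs, by 2956 UMIs on average (SD 909, exact sign-flip permutation p = 0.03125, the smallest that 6 pairs allow, and 0.109 after adjustment over 7 such tests). Mgl2 itself was counted at a median of 4 UMIs per member. It was exactly 3 in 44 cells, 4 in 23, 5 in 21 and 6 or more in 30. Around the threshold, with no test, the 44 members with 3 Mgl2 UMIs and the 68 gated cells with 2 held Clec10a at 84.6 and 49.2 CPM (UMIs per 1000000 UMIs of the summed cells), Lyz2 at 307 and 160 CPM, and Cd209a at 287 and 223 CPM.

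The label under which these cells were chosen names Mmp12, Cd209b and Slc7a11 beside Mgl2, and these 3 are given as levels with no test. Slc7a11, the cystine transporter chain, stood at 15.2, 29.1 and 27.6 CPM in members of hashtags 2, 4 and 5 and at 439, 436 and 517 CPM in hashtags 6, 8 and 9. Mgl2-zero cells had 53.0, 42.3 and 55.1 CPM in the first 3 of these hashtags and 338, 329 and 252 CPM in the others. Members were thus above their paired Mgl2-zero cells in the 3 deeper hashtags and below them in the 3 shallower ones. Mmp12, a matrix metalloprotease, was above the paired level in 3 of 6 hashtags, with 45.7, 271, 138, 547, 525 and 560 CPM in members of hashtags 2, 4, 5, 6, 8 and 9 against 115, 90.9, 78.2, 414, 638 and 622 CPM. Cd209b, a lectin of the DC-SIGN family, was above the paired level in 6 of 6, at 15.2 to 100 CPM against 4.10 to 37.8 CPM. In hashtags 2, 4 and 5 this rests on few cells, as 2 of 13, 3 of 21 and 1 of 4 members had a Cd209b UMI. Plet1-high cells, defined below, held Cd209b at 52.9 CPM in their sum over all hashtags, so its level was not particular to the members. Only 20.3% of members had a UMI of all 3 genes. Mmp12 and Slc7a11 therefore did not set the members apart from other gated cells in every replicate, and the cells are called by their Mgl2 counts here.

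Markers of the cDC2 lineage outside the gate summed to 1258 to 1638 CPM in the members' summed libraries and 1108 to 1277 CPM in Mgl2-zero cells. This sum includes Clec10a and Cd209a, which are described below as higher in the members. It therefore does not show that the other cDC2 markers were higher, and Irf4, Flt3, Zbtb46 and Itgam did not pass in the test below. Of 11 macrophage markers outside the gate, Mertk, Folr2 and Vsig4 were at 0 in the members, and the list summed to 230 to 443 CPM, against 260 to 332 CPM in Mgl2-zero cells. In C1q-high cells, which are macrophage-like by gate, the same list summed to 2336 to 2645 CPM. Among 8 monocyte markers, Ly6c2, F13a1, Chil3, Vcan, S100a8, S100a9 and Hp were at 0 in the members, and Plac8 alone made up the sum. The sum was 426 to 1241 CPM in the members and 528 to 1425 CPM in Mgl2-zero cells. S100a8 and S100a9 were at 0 in Mgl2-zero cells as well. The members' zeros come from 1480806 summed UMIs, against 23823765 in Mgl2-zero cells. The 9 T and NK cell markers summed to 0 to 22.9 CPM. The 6 cDC1 markers outside the gate were lower than in Mgl2-zero cells in 5 of 5 pairs, by 198 CPM on average. The exact sign-flip permutation p was 0.0625, the smallest that 5 pairs allow, and 0.146 after adjustment over the 7 such tests. The same permutation test gave p = 0.6875, 0.6875 and 0.75 for the macrophage, monocyte and migratory DC sums. The gate capped Xcr1 and Clec9a at the same raw UMI count in both classes, while the members were deeper. The part of this cap in the lower cDC1 sum was not tested.

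The 118 members were not 1 uniform population. A group of 8 cells held 9 to 50 UMIs of Prdm16, a zinc-finger transcription factor, while the other 110 held at most 1. These 8 came from 4 hashtags (1 cell in hashtag 4, 3 in hashtag 6, 1 in hashtag 8 and 3 in hashtag 9). They were deep, with a median of 24695 UMIs against 11464 in the other 110, and their median Mgl2 count was 12 against 4. The threshold of 2 Prdm16 UMIs that separates them was set after their values were seen, so the differences between the 8 and the 110 carry no test.

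The 8 cells shared a set of genes that the other members lacked. Krt8, an epithelial-type keratin, was counted in 8 of 8 and in 0 of 110. Col17a1, a hemidesmosome collagen, was counted in 7 of 8 and in 3 of 110, and Pigr, the polymeric immunoglobulin receptor, in 5 of 8 and in 1 of 110. Adam12, a metalloprotease, stood at 406 CPM in the sum of the 8 and at 0 in the sum of the 110. Irf8, a transcription factor that cDC1 and some other DCs need, stood at 435 against 29.8 CPM. Clec10a, a lectin gene near Mgl2 on chromosome 11, was present in 7 of 8 cells and in 36 of 110, whereas Cd209a was counted in 1 of 8 and in 86 of 110, and Lyz2 in 4 of 8 and in 73 of 110. The label genes Mmp12 and Slc7a11 were low in the 8 as well, at 38.6 and 43.5 CPM, against 524 and 415 CPM in the 110. Sirpa, a gate gene, stood at 82.1 against 265 CPM. The transcription factor genes Zeb2 and Irf4 stood at 96.6 and 184 CPM in the 8, against 763 and 225 CPM. The 7 epithelial markers, which include Krt8 and Epcam, summed to 48.5 to 284 CPM in the members' libraries and 17.6 to 168 CPM in Mgl2-zero cells. Krt19 and Reg3g were at 0 in the members. This sum was not particular to the 8 cells. Members of hashtag 2, with 0 Prdm16 cells, had 61.0 CPM against 17.7 CPM in their pair. Plet1-high cells, defined below, had 185 to 202 CPM in hashtags 6, 8 and 9. Cells with 2 or more Prdm16 UMIs also occurred among Mgl2-zero cells, 17 of 2927. Droplets with 2 different hashtags had been set aside, but droplets with 2 cells of the same hashtag had not, and their part in these 8 cells was not tested.

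**Figure D2:**
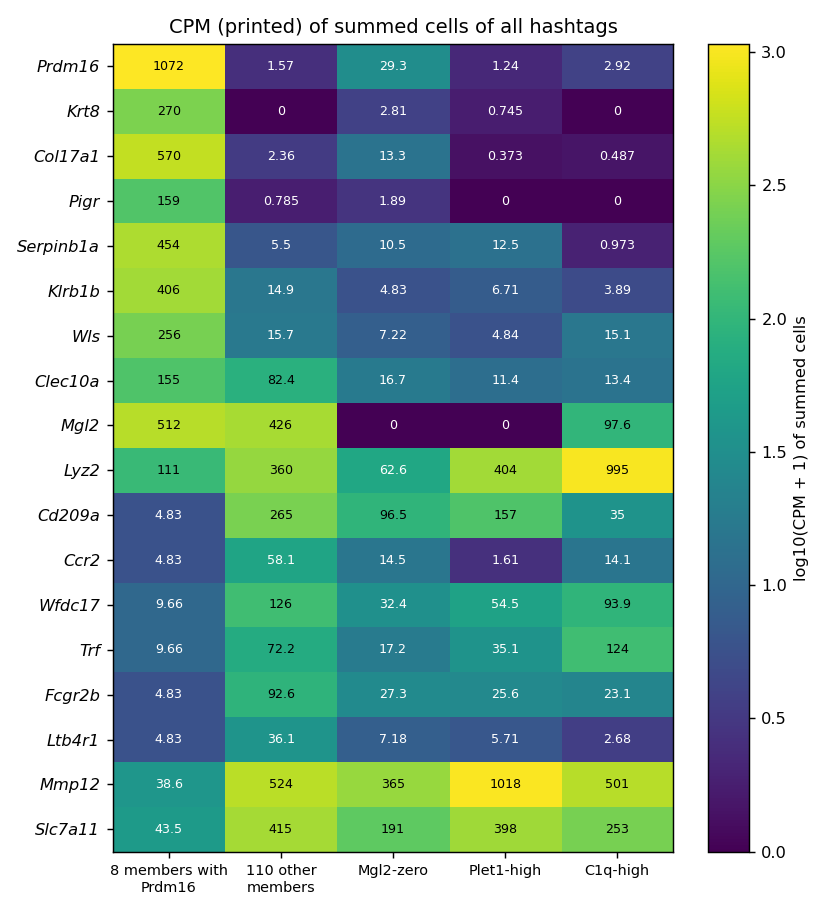
CPM, printed in each field and coloured as log10(CPM + 1), of 18 genes in summed cells of all hashtags; columns are the 8 members with Prdm16, the other 110 members, Mgl2-zero, Plet1-high and C1q-high cells, the last 2 almost all from hashtags 6, 8 and 9. Prdm16, Krt8, Col17a1 and Pigr, at 159 to 1072 CPM in the first column, are at 0 to 2.36 CPM in the second, and Cd209a, Ccr2, Wfdc17, Trf, Fcgr2b and Ltb4r1 show the opposite.

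To ask which genes accompany high Mgl2 in the same gate, counts were summed per class and hashtag and compared within hashtags. Hashtag 5, with 4 members, gave no summed library, so the comparison rests on 5 pairs, from hashtags 2, 4, 6, 8 and 9. Of 9091 genes tested with edgeR's quasi-likelihood test, 262 (2.88%) passed at a Benjamini-Hochberg adjusted p below 0.05, 141 (1.55%) higher and 121 (1.33%) lower in the members. The direction of the calls moved with the settings: DESeq2 called 120 higher and 65 lower, the fit with no filter on low counts 193 and 381, the fit without hashtag 9 80 and 147, and the fit without hashtag 6 60 and 77. With the cells of 2 or more Prdm16 UMIs left out of both classes, 258 of 8976 genes passed (2.87%), 135 (1.5%) higher and 123 (1.37%) lower, and 172 genes passed in both. The median log2 fold change over all genes tested was -0.04. At any p, 533 genes (5.86%) had all 5 member libraries above their pairs. The labels do not say whether replicates were separate animals, so p-values measure the spread between these replicates.

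The members carried more of the lectin, lysozyme and chemokine receptor genes that are associated with the cDC2B subset. Clec10a encodes CD301a, the closest relative of the CD301b lectin. It stood at 244, 155, 86.8, 53.1 and 41.3 CPM in members of hashtags 2, 4, 6, 8 and 9 and at 21.8, 32.1, 9.43, 8.09 and 14.5 CPM in Mgl2-zero cells. Every member library was above every Mgl2-zero library, a log2 fold change of 2.65 ± 0.26 (SE, 5 pairs, edgeR adjusted p = 5.85e-06), and 2.39 ± 0.30 without the Prdm16 cells (adjusted p = 6.8e-06). The annotated transcripts of Mgl2 and Clec10a share 270 sequences of 50 bases, 12.2% of those of Mgl2 and 8.49% of those of Clec10a, and reads from these stretches cannot be told apart by sequence. The part of such reads in the Clec10a result was not tested.

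Lyz2, the lysozyme of phagocytes, stood at 411, 780, 231, 195 and 251 CPM in the members against 61.9, 99.4, 55.8, 50.1 and 53.6 CPM, with no overlap between the classes. The log2 fold change was 2.45 ± 0.17 (adjusted p = 1.74e-08), and 2.62 without the Prdm16 cells. Ccr2, the receptor for monocyte chemoattractant chemokines, stood at 107, 160, 28.9, 47.2 and 10.8 CPM against 21.5, 25.9, 8.41, 8.09 and 7.04 CPM. It was higher in 5 of 5 pairs (log2 fold change 2.10 ± 0.31, adjusted p = 0.000436), though the member library of hashtag 9 lay below the Mgl2-zero libraries of hashtags 2 and 4. Cd209a, a DC-SIGN-type lectin, reached 191, 194, 234, 254 and 232 CPM against 34.5, 48.8, 123, 136 and 150 CPM. All member libraries were above all Mgl2-zero libraries (log2 fold change 1.29 ± 0.21, adjusted p = 0.00124), and the value was 1.54 without the Prdm16 cells, in which Cd209a was nearly absent.

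Ccr2 missed the threshold among cells of 6000 to 16000 UMIs, where 3 pairs remained (log2 fold change 2.35, adjusted p = 0.0639). Cd209a missed it when members needed 5 or more Mgl2 UMIs (0.79, adjusted p = 0.246). Clec10a and Lyz2 passed in both of these settings.

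**Figure D3:**
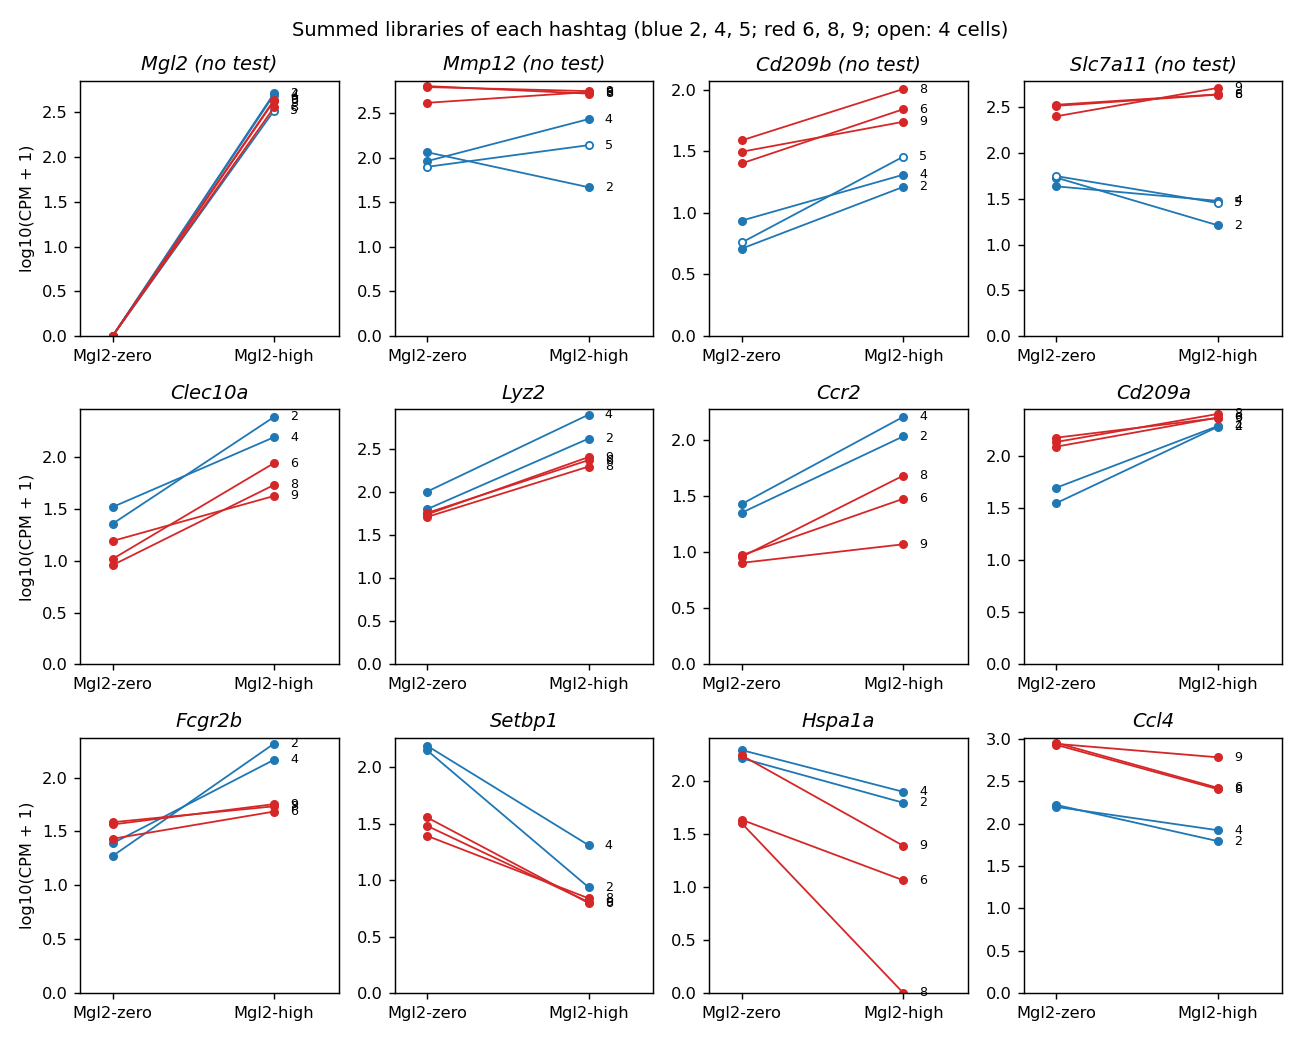
Levels as log10(CPM + 1) of 12 genes in the summed libraries of Mgl2-zero and Mgl2-high cells, 1 line per hashtag, blue for hashtags 2, 4 and 5 and red for 6, 8 and 9; open circles are the 4 members of hashtag 5, which entered no test. Clec10a, Lyz2, Ccr2, Cd209a and Fcgr2b rise and Setbp1, Hspa1a and Ccl4 fall in each of 5 pairs, while Mmp12 and Slc7a11 cross between hashtags.

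Several other genes of myeloid function were higher in 5 of 5 pairs. Wfdc17, a secreted protease-inhibitor-like protein, stood at 183, 131, 89.4, 142 and 89.7 CPM against 18.8, 21.2, 41.5, 39.6 and 45.0 CPM (log2 fold change 1.88 ± 0.27, adjusted p = 0.000352). Trf, transferrin, stood at 83.8, 96.9, 65.8, 29.5 and 57.4 CPM against 12.7 to 22.9 CPM (1.85 ± 0.26, adjusted p = 0.000352). Both had members above all Mgl2-zero libraries. Ltb4r1, the high-affinity leukotriene B4 receptor, stood at 61.0, 33.9, 21.0, 29.5 and 21.5 CPM against 5.60, 7.06, 9.17, 6.89 and 7.82 CPM (2.03 ± 0.38, adjusted p = 0.00453). These 3 genes were counted almost only in the 110 members without Prdm16, and their log2 fold changes were 2.10, 2.05 and 2.21 when the Prdm16 cells were left out.

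Fcgr2b, the inhibitory Fc receptor, stood at 206, 145, 47.3, 53.1 and 55.6 CPM in the members against 17.7, 23.5, 26.0, 37.5 and 35.7 CPM (1.68 ± 0.34, adjusted p = 0.0079). The gap was wide in hashtags 2 and 4 and narrow in hashtags 6, 8 and 9, and without hashtag 4 the adjusted p was 0.0586. Stxbp6, a regulator of vesicle fusion, was higher by 2.03 ± 0.41 (adjusted p = 0.00818), from 45.7 and 82.4 CPM in hashtags 2 and 4 and 13.2, 5.90 and 10.8 CPM in the others; without hashtag 4 its adjusted p was 0.123. Lilrb4a, an inhibitory receptor, stood at 76.2, 82.4, 237, 289 and 178 CPM against 31.2, 46.8, 135, 117 and 114 CPM (0.96 ± 0.16, adjusted p = 0.00188). Cd200r1, another inhibitory receptor, was higher as well (1.22 ± 0.28, adjusted p = 0.0206), with the main gap in hashtags 2 and 4, where it stood at 206 and 174 CPM against 44.8 and 71.5 CPM. Its call was lost without hashtag 2, 4 or 6 (adjusted p up to 0.130).

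Part of the list of highest genes came from the 8 Prdm16 cells. Serpinb1a, an inhibitor of neutrophil serine proteases, stood at 15.2, 14.5, 97.3, 112 and 70.0 CPM against 4.71, 9.41, 11.0, 15.9 and 13.5 CPM, a log2 fold change of 2.49 ± 0.31 (adjusted p = 9.04e-05). Without the Prdm16 cells its value was -0.98 ± 0.66 (adjusted p = 0.555), and 6 of the 110 other members had a UMI of it. Klrb1b, an NK-type lectin, had a log2 fold change of 4.13 ± 0.41 (adjusted p = 5.85e-06) with all members and 2.18 ± 0.62 (adjusted p = 0.049) without these cells. Capg, an actin-capping protein, had 2.85 (adjusted p = 0.000352) and 1.71 and did not pass without them (adjusted p = 0.0827). Wls, the transporter of WNT proteins, and Poc1a, a centriole protein, were too rare to be tested without these cells, and Poc1a also lost its call without hashtag 6 or 8 (adjusted p up to 0.134). Irf8 had a log2 fold change of 1.41 ± 0.31 (adjusted p = 0.0152) with all members and 0.06 (adjusted p = 0.959) without them, and Lamp1, a lysosomal membrane protein, had 1.15 and 0.45 (adjusted p = 0.247).

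**Figure D4:**
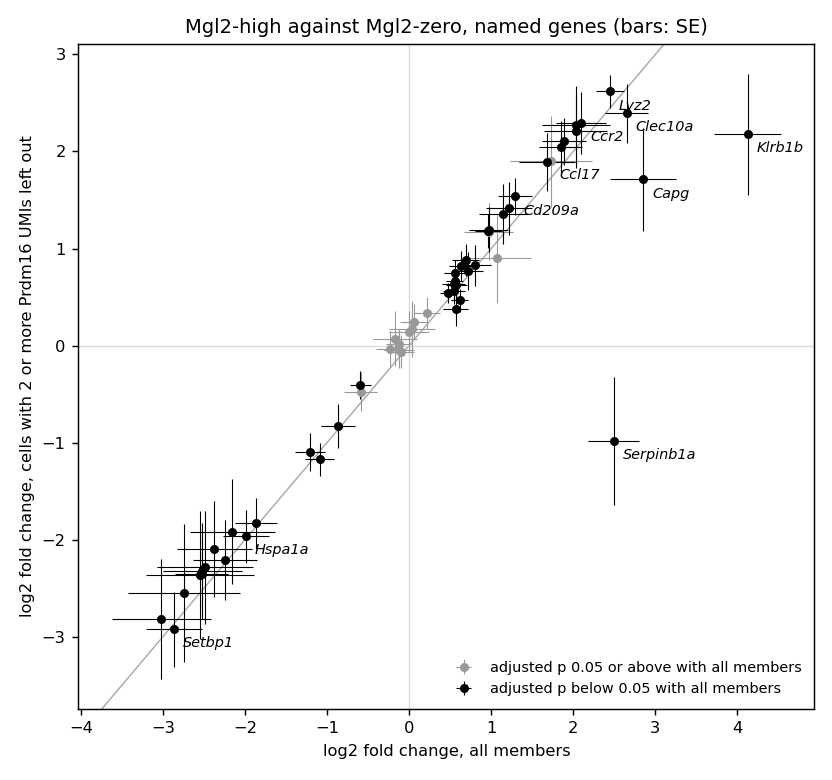
Log2 fold change of the named genes between Mgl2-high and Mgl2-zero cells, with all members on the horizontal axis and with cells of 2 or more Prdm16 UMIs left out on the vertical axis; bars are SE and black points passed at adjusted p below 0.05 with all members. Most genes lie near the diagonal, while Serpinb1a falls from 2.49 to -0.98 and Klrb1b from 4.13 to 2.18.

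Among the lowest genes, Setbp1, a chromatin-associated protein, stood at 7.62, 19.4, 5.26, 5.90 and 5.38 CPM in the members against 140, 154, 34.9, 23.7 and 29.2 CPM. All member libraries were below all Mgl2-zero libraries (log2 fold change -2.87 ± 0.34, adjusted p = 5.04e-05, and -2.93 without the Prdm16 cells). Esrrg, an orphan nuclear receptor, was lower, with 14 member UMIs against 1503 (-2.53, adjusted p = 0.000128), and Sdk1, a cell adhesion protein, likewise, with 4 against 542 (-3.02, adjusted p = 0.00746). Zfp521, a zinc-finger protein of progenitor cells, stood at 38.1 and 9.69 CPM in hashtags 2 and 4 and at 0 in the others, against 99.8, 101, 8.41, 2.40 and 6.41 CPM (-2.52 ± 0.48, adjusted p = 0.00467). Il12rb2, a chain of the interleukin-12 receptor, was lower by 2.15 ± 0.52 on the log2 scale (adjusted p = 0.0259). Dtl, Slco5a1, Gm12865 and Rundc3b were lower by 2.24 to 2.55. Ceacam16 had 3 UMIs in the members against 366, pooled over the hashtags, and lost its call without hashtag 2, 4, 8 or 9 (adjusted p up to 0.210). With 1 hashtag left out, Dtl ranged from -3.98 to -1.98 and lost its call without 4, 6 or 9 (adjusted p up to 0.200), and Slco5a1 ranged from -3.36 to -1.80 and lost it without 2 or 4 (up to 0.236). Zfp521 ranged from -3.72 to -2.08 and lost it without 4 (0.0950), and Il12rb2 lost it without 4 or 6 (up to 0.156). Sdk1 kept its call at -4.53 to -2.61. In Mgl2-zero cells, Setbp1, Esrrg, Zfp521, Ceacam16, Dtl and Slco5a1 stood higher in hashtags 2 and 4 than in the others, and Gm12865 stood lower there.

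Dlc1, a GTPase-activating protein, had 12 UMIs in the members against 926 (-2.18, adjusted p = 0.0157, and -4.92 to -1.67 with 1 hashtag left out, the call being lost without hashtag 2 at an adjusted p of 0.0552). The 12 were nearly all in hashtag 4, and with Prdm16 cells left out it had 0 against 908, which is at least 18.5-fold lower against a floor of 3 counts over the group. Other genes reached the lower end only without the Prdm16 cells, and were picked after their values were seen. Dscam, a cell adhesion molecule, then stood at 83.8, 112, 16.1, 7.62 and 12.3 CPM against 1279, 1165, 102, 31.2 and 67.3 CPM, a log2 fold change of -3.16 ± 0.24 (adjusted p = 1.4e-10), against -1.90 (adjusted p = 0.0045) with all members. Ccr6, a receptor for CCL20, had a log2 fold change of -0.37 (adjusted p = 0.748) with all members. Without the Prdm16 cells it had 2 UMIs against 568 in the 5 pairs, 17.3-fold fewer per UMI sequenced (95% exact counting interval 4.78 to 144), with an adjusted p of 0.00057. Of 24 Ccr6 UMIs in the members, 22 were in the 8 Prdm16 cells.

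The gene groups are given next, as counts of members that passed beside the share over all genes tested (1.55% higher and 1.33% lower), with their median log2 fold change beside -0.04 for all genes. Of 10 cDC2B-associated genes tested, 6 were higher and 0 lower, with a median of 1.01. The 6 were Lyz2, Clec10a, Ccr2, Cd209a, Tmem176a (1.06) and Tmem176b (0.68), the last a pair of linked membrane proteins. Tmem176a missed the threshold without hashtag 6 (adjusted p = 0.0530) and Tmem176b without 2 or 6 (up to 0.267). Without the Prdm16 cells Csf1r, the receptor for CSF1, and Ms4a6c also passed, for 8 of 10. The genes of this list were known to move with Mgl2 in earlier results of these cells, so the count is a description. Of 7 cDC2A-associated genes tested, 0 passed (2 at an unadjusted p under 0.05 and 0 with DESeq2), and the median was 0.36. Without the Prdm16 cells, Clec4a4, the lectin DCIR2, was lower (-1.56, adjusted p = 0.0383).

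C-type lectin receptors sense sugars of microbes and of the host. Of 23 in the list, 14 passed the filter on low counts, 5 were higher and 0 lower, with a median of 0.71. Beside Clec10a and Cd209a these were Clec4a3 (1.60, adjusted p = 0.0469), Clec4n (0.97, adjusted p = 0.0292) and Ly75 (1.05, adjusted p = 0.0478). Clec4n, the lectin dectin-2, stood at 99.1, 53.3, 47.3, 100 and 96.9 CPM against 25.3, 20.6, 41.8, 65.3 and 50.4 CPM. Ly75, which encodes DEC-205, had -0.55 (adjusted p = 0.457) without the Prdm16 cells, and Clec4a3 was then too rare to be tested. With 1 hashtag left out, Clec4n lost its call without 2, 4, 8 or 9 (adjusted p up to 0.137), Ly75 without 4, 6, 8 or 9 (up to 0.449) and Clec4a3 without 6 or 8 (up to 0.127), while without 2 or 4 Clec4a3 was too rare to be tested. Of 5 Fc receptor genes, Fcgr2b and Fcer1g, the shared signalling chain, were higher and 0 were lower. Fcer1g stood at 488, 630, 516, 519 and 521 CPM against 353, 355, 389, 372 and 366 CPM (0.57 ± 0.12, adjusted p = 0.0132), a call that was lost without hashtag 4, 6, 8 or 9 (adjusted p up to 0.149).

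Of 16 MHC class II presentation genes, 6 were higher, 0 were lower and 10 did not pass, with a median of 0.19. Cd74, the invariant chain, stood at 11308, 10380, 13391, 15530 and 14147 CPM in the members against 5566, 6269, 11633, 12151 and 11397 CPM (0.55 ± 0.11, adjusted p = 0.00534). H2-Aa (0.49), H2-Ab1 (0.46), H2-Eb1 (0.37) and the peptide-loading gene H2-DMb1 (0.54) also passed, as did Ifi30, a lysosomal thiol reductase (0.54). With 1 hashtag left out, H2-Ab1, H2-Eb1, H2-DMb1 and Ifi30 lost their call whichever it was (adjusted p up to 0.260, 0.465, 0.291 and 0.165), H2-Aa without hashtag 4, 6, 8 or 9 (up to 0.235) and Cd74 without 6 or 9 (up to 0.158). In the fit without Prdm16 cells, 8 of 16 were higher. Of 22 lysosomal genes, Lamp1, Cd68, Psap and Npc2 were higher and Tfeb, a transcription factor of lysosome genes, was lower (-0.87, adjusted p = 0.0264). Cd68 and Npc2 lost their call with any 1 hashtag left out (adjusted p up to 0.305 and 0.138), Psap without 4, 6 or 9 (up to 0.175), Lamp1 without 8 (0.0535) and Tfeb without 2, 4, 6 or 8 (up to 0.108). Of 13 costimulatory and coinhibitory genes, the inhibitory receptors Cd200r1 and Lilrb4a were higher, and 0 were lower.

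**Figure D5:**
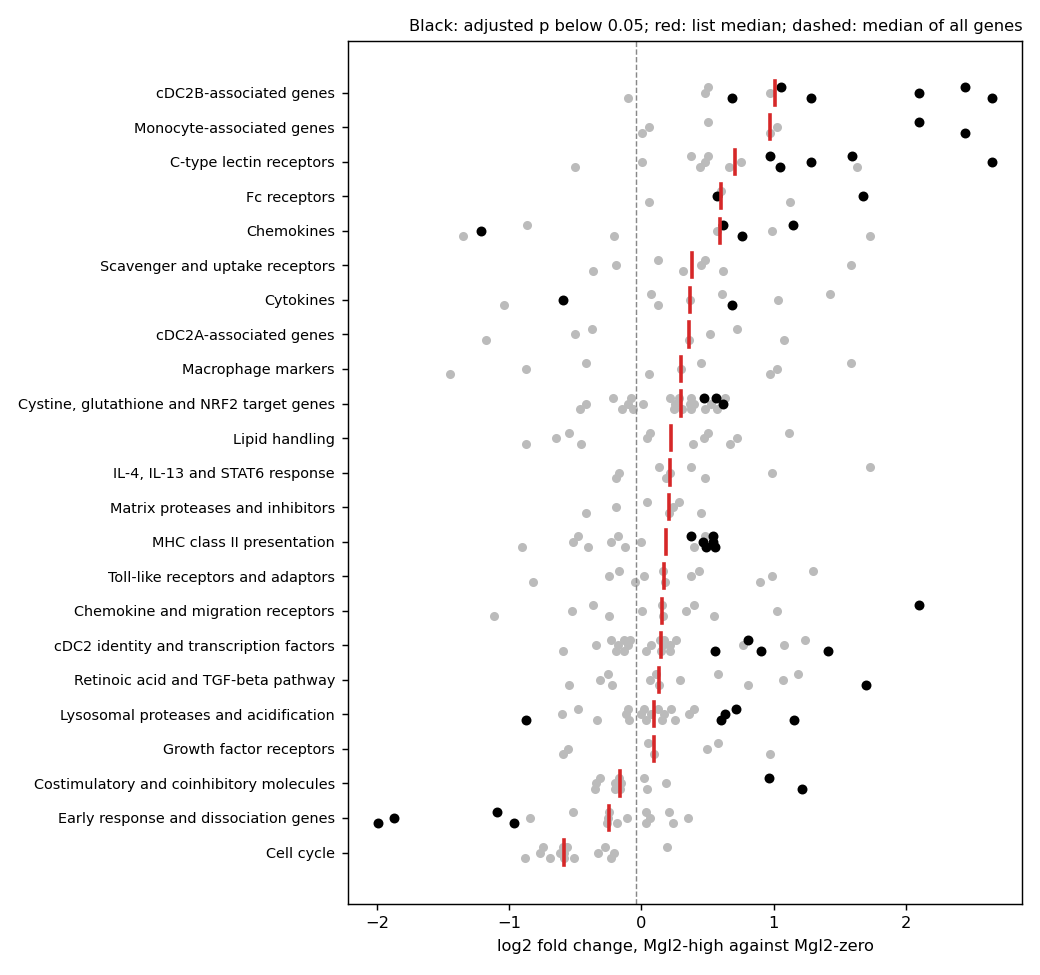
Log2 fold change between Mgl2-high and Mgl2-zero cells of the genes tested in each of 23 lists; black points passed at adjusted p below 0.05, red bars are list medians and the dashed line is the median of all genes (-0.04). cDC2B-associated genes have the highest median (1.01) and cell cycle genes the lowest (-0.59, with 0 genes passing).

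Of 25 cDC2 identity and transcription factor genes, Irf8, Cebpb (0.90), Zeb2 (0.56) and Epcam (0.80) were higher and 0 were lower. Zeb2, a repressor that favours cDC2 over cDC1 fate, stood at 1059, 838, 576, 472 and 628 CPM against 522, 615, 407, 451 and 433 CPM. Each of the 4 lost its call with some hashtags left out: Zeb2 without 2, 4, 6 or 9 (adjusted p up to 0.235), Epcam without 4, 6, 8 or 9 (up to 0.253), Cebpb without 6, 8 or 9 (up to 0.443) and Irf8 without 6 or 8 (up to 0.171). Irf4, the main cDC2 transcription factor, stood at 22.9, 67.8, 234, 389 and 269 CPM against 83.6, 70.3, 291, 308 and 299 CPM and did not pass (-0.13 ± 0.18, adjusted p = 0.794). Klf4 (-0.23, adjusted p = 0.588), Zbtb46 (-0.13, adjusted p = 0.737), Itgam (0.21, adjusted p = 0.557) and Flt3 (-0.59, adjusted p = 0.136) did not pass either. Itgae, which encodes the intestinal integrin CD103, had 0.03 ± 0.28 (adjusted p = 0.977), at 0, 4.85, 42.1, 147 and 73.6 CPM in the members. Esam, a cDC2A adhesion molecule, had 1.08 (adjusted p = 0.394).

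Secreted mediators moved in both directions. Of 10 chemokine genes, Ccl6 (1.15), Cxcl2 (0.76) and Cxcl16 (0.62) were higher, and Ccl4, an inflammatory chemokine, was lower. The calls of Ccl6 and Cxcl16 were lost without hashtag 4, 6, 8 or 9 (adjusted p up to 0.173 and 0.279) and that of Cxcl2 without 6, 8 or 9 (up to 0.447). Ccl4 stood at 61.0, 82.4, 263, 254 and 605 CPM against 165, 156, 896, 849 and 873 CPM (-1.21 ± 0.19, adjusted p = 0.00078). Il1b, interleukin-1 beta, stood at 99.1, 213, 3743, 3101 and 2807 CPM against 168, 165, 1711, 1751 and 1644 CPM (0.69 ± 0.16, adjusted p = 0.0244). It was higher in 4 of 5 pairs and lower in hashtag 2, and it lost its call without hashtag 6, 8 or 9 (log2 fold changes 0.43 to 0.60). Il1r2, the decoy receptor, was lower (-0.59, adjusted p = 0.0157) but not without the Prdm16 cells (-0.41, adjusted p = 0.148) or without hashtag 6 (adjusted p = 0.0927). Ccl17, a chemokine of type 2 immunity, stood at 15.2, 67.8, 26.3, 0 and 26.9 CPM against 6.48, 6.47, 4.84, 19.2 and 10.2 CPM and did not pass (1.73 ± 0.50, adjusted p = 0.0692), whereas it did without the Prdm16 cells (1.90, adjusted p = 0.0174). Of 9 genes of the IL-4, IL-13 and STAT6 response, 0 passed with all members, 3 at an unadjusted p under 0.05 and 0 with DESeq2. Pdcd1lg2, which encodes PD-L2, was at -0.17 (adjusted p = 0.817).

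Monocyte-associated and macrophage genes were counted apart. Of 17 monocyte-associated genes, 7 passed the filter on low counts, and of these Lyz2 and Ccr2 were higher, both also in the cDC2B list. Csf1r stood at 152, 96.9, 26.3, 5.90 and 10.8 CPM against 45.9, 44.1, 15.8, 14.1 and 8.60 CPM and did not pass with all members (0.97 ± 0.30, adjusted p = 0.0864), but did without the Prdm16 cells (1.17, adjusted p = 0.0212). Of 9 macrophage markers tested, 0 passed, 5 at an unadjusted p under 0.05 (3 higher, 2 lower) and 0 with DESeq2. Adgre1, which encodes F4/80, was at 0.06 (adjusted p = 0.911). Mrc1, the mannose receptor, was too rare to test, at 0, 29.1, 2.63, 0 and 5.38 CPM in the members.

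Slc7a11 being a cystine transporter, its pathway was examined with the gene itself left aside. Of 24 cystine, glutathione and NRF2 target genes, 3 were higher and 0 lower, with a median of 0.30. The iron-storage genes Ftl1 (0.62, adjusted p = 0.00188) and Fth1 (0.48, adjusted p = 0.00673) passed with and without the Prdm16 cells, but Fth1 lost its call without hashtag 4, 6, 8 or 9 (adjusted p up to 0.282) and Ftl1 without 6 or 9 (up to 0.0922). Txn1, thioredoxin, passed with all members (0.57, adjusted p = 0.0434) but not without them (0.37, adjusted p = 0.301), when Nfe2l2 passed in its place, nor with any 1 hashtag left out (adjusted p up to 0.287). Slc3a2, the partner chain of Slc7a11, had -0.10 (adjusted p = 0.81). Of 7 matrix protease and inhibitor genes other than Mmp12, 0 passed, 0 also at an unadjusted p under 0.05 and 0 with DESeq2. Of 13 retinoic acid and TGF-beta pathway genes, Tgfbi was higher (1.70 ± 0.38, adjusted p = 0.0157, but up to 0.0768 without hashtag 4 or 9), and Aldh1a2, a retinoic acid-forming enzyme, was at 1.07 (adjusted p = 0.2).

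Of 17 early response and dissociation genes, which rise during tissue digestion, 4 were lower, 0 were higher and 13 did not pass, with a median of -0.25, and the same 4 passed without the Prdm16 cells. Hspa1a, a stress-induced chaperone, stood at 61.0, 77.5, 10.5, 0 and 23.3 CPM against 162, 193, 41.8, 38.7 and 172 CPM (-1.99 ± 0.28, adjusted p = 0.000336). Hspa1b (-1.87), Jun (-1.09) and Egr1 (-0.97) were lower in 5 of 5 pairs too. Egr1 belongs to the same immediate-early family as Egr2 and Egr3, which the gate capped at the same raw UMI count in both classes. The members were deeper, at a median of 11878.5 against 7060 UMIs, so the cap allowed them fewer such transcripts per UMI. Its part in the lower values of this list was not tested. Of 15 cell cycle genes, 0 passed, 3 at an unadjusted p under 0.05 (3 lower) and 0 with DESeq2, with a median of -0.59. For scavenger receptors (8), lipid handling (12), Toll-like receptors (12) and growth factor receptors (7), 0 genes passed in each, and 2, 7, 1 and 3 had an unadjusted p under 0.05. DESeq2 called 0 in these 4 lists.

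The effect of class differed between the shallower hashtags (2 and 4) and the deeper ones (6, 8 and 9) for 90 of 9091 genes (0.99%), tested as an interaction in the same edgeR fit. Which of the hashtags came from which tissue is not given, so depth, tissue and any other difference between these replicates cannot be told apart. Cd209a differed by -1.37 (adjusted p = 0.015), Fcgr2b by -2.34 (adjusted p = 0.00124), Wfdc17 by -1.65 (adjusted p = 0.0253) and Cd74 by -0.56 (adjusted p = 0.0227), each a smaller gain in the deeper hashtags. Il1b differed by 0.96 (adjusted p = 0.0461), a larger gain there. These 5 differences also passed without the Prdm16 cells, at -1.22, -2.21, -1.50, -0.51 and 1.07.

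Plet1-high cells are the cells of the same gate with 3 or more Plet1 UMIs and 0 Mgl2 UMIs, 574 in all, nearly all of them in hashtags 6, 8 and 9. Over these 3 pairs, 247 of 7262 genes (3.4%) passed, 133 (1.83%) higher and 114 (1.57%) lower in the Mgl2-high cells. Without the Prdm16 cells 279 of 7107 passed (3.93%), 178 (2.5%) higher and 101 (1.42%) lower, and 148 of them were among the 247. The fit had 2 residual degrees of freedom, and without hashtag 9 the count was 39. Of the genes named below, with all members, Cd209a, Lyz2, Itgae, Ccr9 and Ltb4r1 lost their call without hashtag 6 or 9 (Cd209a also without 8). For Ltb4r1 the adjusted p rose up to 0.229. The calls of Il1b, Plet1os, Esrrg, Fat3 and Rad51b were lost without hashtag 9.

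Mgl2-high cells exceeded Plet1-high cells in Ccr2, Clec10a and Il1b and had less Lyz2. Ccr2 stood at 28.9, 47.2 and 10.8 CPM in hashtags 6, 8 and 9 against 2.60, 1.04 and 1.43 CPM (log2 fold change 3.76 ± 0.62, adjusted p = 0.00201, and 4.04 without the Prdm16 cells). Clec10a stood at 86.8, 53.1 and 41.3 CPM against 18.7, 9.35 and 8.60 CPM (2.31 ± 0.30, adjusted p = 0.000318, and 1.62 without these cells). Il1b stood at 3743, 3101 and 2807 CPM against 2230, 2030 and 1788 CPM (0.69, adjusted p = 0.00078). Cd209a was higher by 0.63 (adjusted p = 0.0321). Lyz2 went the other way, at 231, 195 and 251 CPM against 646, 244 and 367 CPM (-0.81, adjusted p = 0.0297), a call that ended without the Prdm16 cells (-0.59, adjusted p = 0.0524). Itgae was lower, at 42.1, 147 and 73.6 CPM against 172, 152 and 159 CPM (-1.04, adjusted p = 0.0376). Irf4 (0.00) and Zbtb46 (-0.07) did not pass. Mmp12, with no test, was at 928, 1203 and 978 CPM in Plet1-high cells, above the 525 to 560 CPM of the members in the same hashtags. Cd209b and Slc7a11, also with no test, stood at 52.9 and 398 CPM in the sum of all Plet1-high cells. In the sum of the 110 members without Prdm16, taken over all hashtags, they stood at 62.8 and 415 CPM.

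The 6 genes at the upper end of this contrast were Pigr, Adam12, Col17a1, Ackr3, Scube1 and Prdm16, and 4 of them were described above in the 8 Prdm16 cells. Pigr had 33 UMIs in the members and 0 in Plet1-high cells, at least 79.9-fold higher against a floor of 3 counts over the group. This bound pools UMIs that came from few cells and leaves out the spread between cells and hashtags. Adam12 had 55 against 1, Col17a1 81 against 3, Ackr3 97 against 5 and Scube1 28 against 1, while Prdm16 had 174 against 10 (log2 fold change 6.89). Without these cells the 6 highest were Ccr2, Plxna4 (3.87), C3ar1 (2.81), Fas (2.76), Ltb4r1 (2.38) and Tmem176a (2.35), picked after their values were seen. C3ar1 is the receptor for complement fragment C3a. At the lower end, Il22ra2, which encodes the soluble IL-22 binding protein, had 0 UMIs in the members against a mean of 44.8 CPM, at least 13.9-fold lower against a floor of 3 counts over the group, and at least 11.6-fold lower without the Prdm16 cells. Plet1os, named after the gate gene Plet1, had 1 UMI against 335. The gate set Plet1 itself to 0 in the members and to 3 or more UMIs in Plet1-high cells. The part of this gate in the Plet1os value was not tested, so the value is not a result apart from the gate. Esrrg had 3 UMIs against 232. Fat3, a protocadherin (-3.15), and Rad51b, a DNA repair gene (-3.09), were lower too. Ccr9, a gut-homing chemokine receptor, had 3 UMIs against 175, 8.03-fold fewer per UMI sequenced (95% exact counting interval 2.70 to 39.3). Of 12 cell cycle genes, 2 were lower and 0 higher, with a median of -1.01.

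C1q-high cells, macrophage-like by gate, numbered 281, nearly all in hashtags 6, 8 and 9. They differed from the Mgl2-high cells far more widely: 2288 of 6622 genes passed (34.6%), 944 (14.3%) higher and 1344 (20.3%) lower in the members. With the Prdm16 cells left out, 2007 of 6417 passed (31.3%), 847 (13.2%) higher and 1160 (18.1%) lower, and 1826 passed in both. Csf1r, the macrophage growth factor receptor, stood at 26.3, 5.90 and 10.8 CPM in the members against 705, 628 and 679 CPM (-5.43 ± 0.27). Maf, a macrophage transcription factor, had 0 UMIs in the members against 1147, at least 103-fold lower, Msr1, a scavenger receptor, was at least 81.9-fold lower, and Mertk, the receptor for apoptotic cells, at least 55.7-fold lower. Of 15 macrophage markers tested, 14 were lower in the members and 0 higher.

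In the same contrast the DC genes Cd209a (2.81), Ccr7 (2.47), Zbtb46 (1.67), Irf4 (1.60), Itgae (1.17) and Flt3 (1.02, adjusted p = 0.011) were higher in the Mgl2-high cells. Itgae lost its call without hashtag 8 or 9 (adjusted p up to 0.168) and Flt3 without 6 or 9 (up to 0.157). Clec10a was higher too (2.06, adjusted p = 0.000122, and 1.35 without the Prdm16 cells). Lyz2 (-2.05) and Adgre1 (-1.62) were lower. Ccr2 (0.80, adjusted p = 0.167) and Wfdc17 (0.18, adjusted p = 0.566) did not pass. With all members, Lyz2 thus lay above Mgl2-zero cells and below both other classes, while Clec10a lay above all 3.

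Across all gated Sirpa+ cells, genes whose depth-normalised log level followed Mgl2 most closely included Clec10a (median Pearson r over 6 hashtags 0.239), Lyz2 (0.210), Crip1 (0.190), Wfdc17 (0.185), Cd209a (0.169), Lgals3, Fcgr2b and Ltb4r1 (each 0.168) and Trf (0.163), of 8774 genes compared. Cells of 1 hashtag share a library and their depth, the counts are sparse, and the correlations are weak, so they are a description. They run over the same cells that the classes were drawn from.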

How the data were processed

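The authors deposited raw UMI counts for each gene and hashtag feature of every barcode. Per the submitters' processing notes, Cell Ranger 8.0.1 and mm10 were used; per the labels' protocols, libraries followed the Chromium 3′ kit, v3. Use of introns or strand in counting is not given there. The deposited assignment table gave 27679 of 3247803 barcodes a hashtag call; 16 of its columns were not used. It named 19239 cells with a single hashtag, and 4815 multiplets, 1706 blank and 1919 unassigned barcodes were left out. Cells needed at least 500 genes and at most 10% mitochondrial UMIs, which left 15480 cells of 0 repeated barcodes, 1485 to 4865 per hashtag with 11673390 to 63633888 UMIs. No doublet caller was run.

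Counts of each class were summed within hashtags (at least 10 cells) and fitted with edgeR 4.0.16 in R 4.3.3 (TMM, filterByExpr, quasi-likelihood test, hashtag as a block), with Benjamini-Hochberg adjustment over all genes tested and a threshold of 0.05. Each hashtag marks 1 biological replicate in the series' design text, and this pairs the classes. The scripts were tested on simulated data. CPM are counts divided by a summed library's total and multiplied by 1000000. SE is the size of the log2 fold change over the square root of its F statistic. Fold bounds against a floor of 3 counts, and counting intervals of fold differences, use UMIs pooled over hashtags. They cover counting error only, not the spread between cells or hashtags. Gate genes and label markers got no test. Members, lists and rules were chosen with earlier results of these data known. The rule named 20 genes whatever their result, at most 3 called genes of each list that had the same sign in every pair, and the 12 highest and 12 lowest called genes with that property and at least 20 CPM (6 for the other contrasts). The 23 lists held 366 genes, of which 365 had a feature. The setting without Prdm16 cells was added after the data were seen. Alternatives were other scaling, DESeq2 1.42.0, no filter, no block, each hashtag left out, other UMI, Mgl2, C1q and mitochondrial limits, and each depth group alone. The genes most like Mgl2 over cells are the 10 with the highest median correlation, of which 1 is not reported here.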

Additional observations from a re-analysis of the deposited data

Results flagged for a closer look

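In 7 of 66 genes checked over the 5 member libraries, 1 library stood apart from the other 4 by Dixon's outlier ratio on CPM. Chance gives about 1 in 20 for normally distributed values. CPM from few UMIs are not of that kind, so this rate cannot tell whether 7 is more than chance gives. In hashtag 2 these were Flt3 at 358 CPM (others 53.1 to 102), Dtl at 22.9 CPM (0 to 5.90) and Zfp521 at 38.1 CPM (0 to 9.69). In hashtag 4 they were Mrc1 at 29.1 CPM (0 to 5.38), Fcer1g at 630 CPM (488 to 521), Setbp1 at 19.4 CPM (5.26 to 7.62) and Dlc1 at 53.3 CPM (0 to 2.63).

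The effect of class differed between the deeper hashtags (6, 8 and 9) and the shallower ones (2 and 4) for 5 named genes, by edgeR's interaction term. The difference in log2 fold change was -1.37 for Cd209a, with pair values of 2.42 and 2.05 in the shallower and 0.96, 0.89 and 0.73 in the deeper ones. It was -2.34 for Fcgr2b (3.49 and 2.68, then 0.89, 0.50 and 0.74) and -1.65 for Wfdc17 (3.23 and 2.68, then 1.13, 1.83 and 1.09). Cd74 differed by -0.56 (0.99 and 0.80, then 0.23, 0.35 and 0.41) and Il1b by 0.96 (-0.79 and 0.44, then 1.16, 0.82 and 0.87).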

How the results depend on the processing

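The 262 genes called between Mgl2-high and Mgl2-zero cells became 574 with no filter on low counts, 137 to 257 with 1 hashtag left out (137 being the lowest), 29 in cells of 6000 to 16000 UMIs and 164 with at least 5 Mgl2 UMIs (3 pairs each), and 480 in the lower-depth hashtags alone. Without the hashtag pairing (no replicate block) 8 genes were called. Of the 47 named genes called in the main fit, 41 then lost their call. In the setting without Prdm16 cells, added after the data were seen, the 258 calls became 140 to 278 with 1 hashtag left out, 1 without the replicate block, 167 with DESeq2 and 470 in the lower-depth hashtags alone. With all members, DESeq2 cost 8 named genes their call. Asking for at least 5 Mgl2 UMIs cost 29 their call. In cells of 6000 to 16000 UMIs, 29 of the named genes still tested there lost it.

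The 247 calls against Plet1-high cells became 139 with DESeq2, 438 with no filter, 39 to 228 with 1 hashtag left out and 30 in cells of 6000 to 16000 UMIs, and, without Prdm16 cells, 160 to 310 and 114 with DESeq2. The 2288 calls against C1q-high cells became 1350 with DESeq2 and 1395 to 1947 with 1 hashtag left out, and, without Prdm16 cells, 1513 to 2024 and 1211. Both kept counts within 1.5 times without the pairing.

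Without Prdm16 cells Serpinb1a reversed to -0.98, to -1.59 to -0.74 with 1 hashtag also left out (with all members, leaving 1 out gave values up to 2.72), -0.95 without the block, -0.81 with DESeq2 and -1.45 in the higher-depth hashtags, and Poc1a to -0.69 in the lower-depth hashtags; the cause of the last was not tested. Only 5 pairs, with as few as 13 members in a hashtag, limit what can be detected.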
